A study of Zea mays with 12 samples.

Results

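The genes described here changed sides between the 2 tissues that face each other at the base of the maize kernel. They are 19 of the 39423 gene models in the deposited table. On the seed side is the basal endosperm transfer layer (BETL), the endosperm cells that face the mother plant. On the maternal side is the maternal transfer zone (MATZ), the tissue that delivers to them. Members were chosen by group means of FPKM (fragments counted on a gene model, divided by its length and by the size of the library) and by ratios on the mean plus 1. At 8 and at 20 days after pollination (DAP) the higher tissue had to reach a mean of at least 20 FPKM, and the ratio between the tissues had to be at least 3 at both ages and in opposite directions. 10 genes were high in MATZ at 8 DAP and in BETL at 20 DAP, and 9 were high in BETL at 8 DAP and in MATZ at 20 DAP. All libraries are wild type, of the inbred line W22, from ears of field plants, and the tissues were cut apart in frozen kernels. There are 6 groups (BETL at 8, 14 and 20 DAP and MATZ at 8, 14 and 20 DAP) with 2 libraries each, 12 in all. Nothing in the labels says that replicates are from different plants, and p-values then measure only a spread that may be technical.

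Sugars, amino acids and minerals reach the grain through these tissues. Maternal cells release them into the space between mother and seed, and the transfer cells of the endosperm, whose inner walls grow into folds that enlarge the membrane, take them up. In the kernel as a whole the period covered runs from the formation of the transfer layer to the filling of the grain with starch and storage protein.

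None of the 19 genes has a descriptive symbol in the RefSeq gene table used for names. Of the genes high first in MATZ, 6 of 10 have a record there, and of the genes high first in BETL, 5 of 9. The symbols of all these records are locus numbers. Some records also list other names as synonyms, among them mde1, IDP22, umc1497, gpm440 and pco144203. No function was read from these names, and none is given for any of the genes. Each is called by the identifier of the deposited table, and its coordinates are those of that table, whose genome build is not given in the sources used here. Since pieces of tissue were sequenced, fewer cells of a type and less RNA per cell cannot be told apart.

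The tissue labels were checked against marker genes. The 8 matched transfer layer genes, among them betl3, betl4 and mn1, summed to 41780 to 91203 FPKM in the BETL libraries and 2226 to 11429.5 FPKM in the MATZ libraries. The 6 matched genes of maternal tissue, among them zag2 and MADS4, summed to 256 to 527 FPKM in BETL and 1559.7 to 3237 FPKM in MATZ, and 1 of these 6 was at 0 in both BETL libraries of each age. In the MATZ libraries the transfer layer sum was 2226 and 2883 FPKM at 8 DAP, 7232 and 6642 FPKM at 14 DAP and 11429.5 and 10149 FPKM at 20 DAP. The 9 matched genes of starchy endosperm, mostly zein storage proteins, summed to 84.0 and 59.6 FPKM at 8 DAP, 2069 and 2332 FPKM at 14 DAP and 763 and 717 FPKM at 20 DAP in BETL. In MATZ the same sum was 36.5 and 43.2 FPKM at 8 DAP, 6288 and 6361 FPKM at 14 DAP and 397 and 559.9 FPKM at 20 DAP. Sums over 4 genes of the embryo surrounding region ran from 461 to 2124 FPKM in BETL and from 12.4 to 255 FPKM in MATZ. Embryo genes (5) gave 7.22 to 477 FPKM in BETL and 14.1 to 179.8 FPKM in MATZ, and aleurone genes (4) gave 14.7 to 46.3 FPKM in BETL and 16.6 to 71.4 FPKM in MATZ. The part of these other cells in the levels below was not tested.

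Changing sides was rare. Of the 4616 genes whose higher tissue reached 20 FPKM at both ages, 1139 were past 3-fold between the tissues at 8 DAP and 1585 at 20 DAP, and 736 at both ages. Among the 736, 275 were higher in BETL at both ages and 442 were higher in MATZ at both ages. The other 19 were on opposite sides, the 10 high first in MATZ being 0.217% of the 4616 and the 9 high first in BETL 0.195%. These counts describe the choice of the genes and carry no test.

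**Figure D1:**
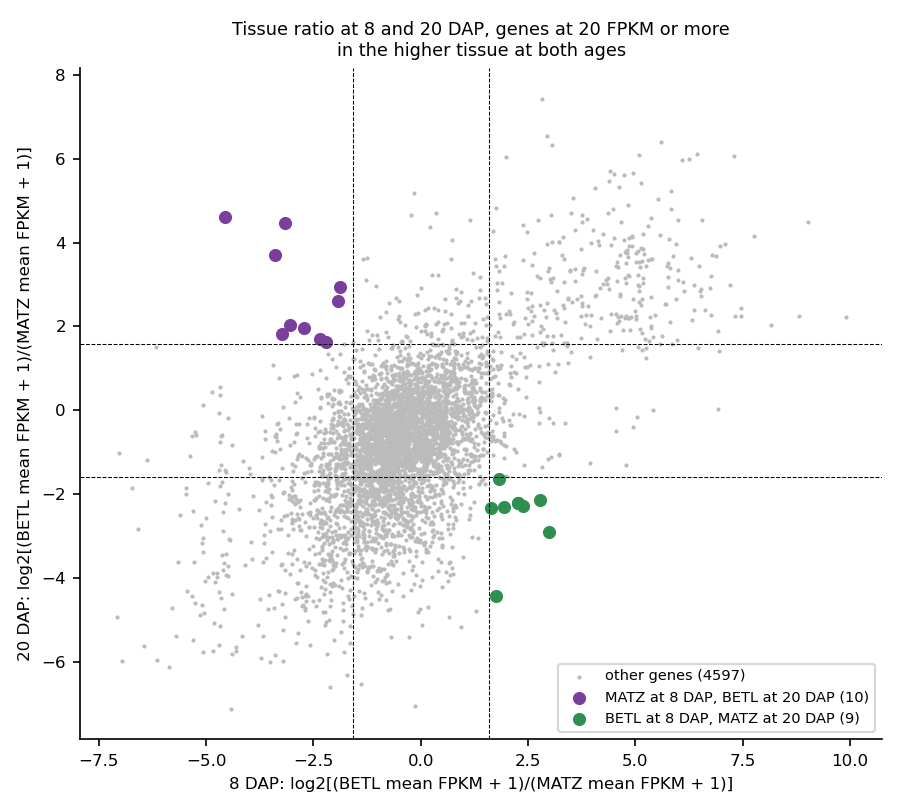
Tissue ratio at 8 DAP (horizontal axis) and at 20 DAP (vertical axis), as log2 of BETL over MATZ on group means of FPKM plus 1, for the 4616 genes that reached 20 FPKM in the higher tissue at both ages. Dashed lines mark 3-fold, grey points are the other genes, and the 10 purple and 9 green points are the genes chosen by lying past 3-fold on opposite sides.

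The limit of 3-fold cuts through a continuous range. Just inside it, among genes high first in MATZ, were GRMZM2G068496 (smaller of the ratios 3.11), GRMZM2G155281 (3.22) and GRMZM2G154896 (3.53). Just outside were GRMZM2G128206 (2.99), GRMZM2G021459 (2.99) and AC194298.3_FG005 (2.85). Among genes high first in BETL, GRMZM2G306851 (3.09), GRMZM2G022799 (3.15) and GRMZM2G068239 (3.38) were just inside, and GRMZM2G112247 (2.95), GRMZM2G001799 (2.83) and GRMZM2G087875 (2.75) just outside.

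The 10 genes high in MATZ at 8 DAP and in BETL at 20 DAP took 3 shapes, which were named after the values were seen. In all 10 the BETL mean was at least 2-fold higher at 20 than at 8 DAP. In 7 of them the MATZ mean was also at least 2-fold lower at 20 than at 8 DAP, and in the other 3 it was not. Changes between ages are given on group means plus 1 and, like the tissue ratios at 8 and 20 DAP, are values that chose the genes, so they carry no test.

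In the first shape, with 3 genes, the MATZ mean at 20 DAP was below 2 FPKM. GRMZM2G062600 (chromosome 4, 234825228 to 234826429, minus strand) had 14.6 and 3.44 FPKM at 8 DAP, 19.8 and 0 FPKM at 14 DAP and 24.9 and 43.5 FPKM at 20 DAP in the BETL libraries. Its MATZ libraries had 97.4 and 109.8 FPKM at 8 DAP, 9.28 and 0 FPKM at 14 DAP and 3.37 and 0 FPKM at 20 DAP. Both MATZ libraries of 8 DAP were above all 10 other libraries, and at 14 DAP replicate 2 was at 0 in both tissues. On means plus 1, MATZ was 10.4-fold above BETL at 8 DAP and BETL was 13.1-fold above MATZ at 20 DAP. The MATZ level at 8 DAP was 39.0-fold that at 20 DAP, while the BETL level at 20 DAP was 3.51-fold that at 8 DAP. By the depth estimate given below, its MATZ libraries of 20 DAP held about 1 and 0 fragments. The 13.1-fold and the 39.0-fold therefore depend on the 1 added to the means.

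GRMZM2G089741 (chromosome 8, 100631979 to 100633194, minus strand) had 0 and 12.7 FPKM at 8 DAP, 27.8 and 4.89 FPKM at 14 DAP and 16.7 and 25.4 FPKM at 20 DAP in BETL. In MATZ the gene had 48.3 and 80.4 FPKM at 8 DAP, 13.8 and 0 FPKM at 14 DAP and 0 and 0 FPKM at 20 DAP. It is listed at 0 in both MATZ libraries of 20 DAP, so no fold is given at that age, and at 8 DAP MATZ was 8.89-fold above BETL. AC190623.3_FG001 (chromosome 3, 192033354 to 192034113, plus strand) was the lowest member by mean, with 0 and 0 FPKM at 8 DAP, 0 and 7.50 FPKM at 14 DAP and 24.2 and 22.4 FPKM at 20 DAP in BETL. Its values in MATZ were 7.99 and 37.4 FPKM at 8 DAP, 0 and 0 FPKM at 14 DAP and 0 and 0 FPKM at 20 DAP. The gene was thus listed at 0 in both libraries of the lower tissue at 8 and at 20 DAP, and in 3 of the 4 libraries of 14 DAP. Most of the MATZ mean at 8 DAP came from replicate 2.

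In the second shape, also with 3 genes, BETL was far higher at 20 than at 8 DAP and the MATZ means of these ages lay within 2-fold of each other. GRMZM2G155281 (chromosome 2, 69177263 to 69180246, minus strand; synonym mde1 in RefSeq) was the most abundant gene high first in MATZ, with 9.49 and 8.98 FPKM at 8 DAP, 147 and 138 FPKM at 14 DAP and 187 and 158 FPKM at 20 DAP in BETL. The MATZ libraries held 40.9 and 60.5 FPKM at 8 DAP, 61.4 and 58.0 FPKM at 14 DAP and 34.0 and 71.6 FPKM at 20 DAP. BETL was the lower tissue at 8 DAP and the higher one at 14 and 20 DAP, and the libraries of the tissues did not overlap at any of the 3 ages. The BETL mean at 20 DAP was 16.9-fold that at 8 DAP, against 1.04-fold for the MATZ mean. Between the tissues, MATZ was 5.05-fold above BETL at 8 DAP and BETL was 3.22-fold above MATZ at 20 DAP.

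GRMZM2G082886 (chromosome 2, 232971458 to 232973054, plus strand) had the same shape, with 0 and 8.93 FPKM at 8 DAP, 82.9 and 49.7 FPKM at 14 DAP and 119 and 110.4 FPKM at 20 DAP in BETL. MATZ replicates lay close together, at 45.9 and 43.0 FPKM at 8 DAP, 29.8 and 27.6 FPKM at 14 DAP and 26.7 and 27.9 FPKM at 20 DAP. The tissues did not overlap at any age here either. MATZ was 8.31-fold above BETL at 8 DAP, and BETL was 4.09-fold above MATZ at 20 DAP. GRMZM2G068496 (chromosome 6, 139904976 to 139906748, plus strand) held 0 and 10.6 FPKM at 8 DAP, 37.0 and 29.0 FPKM at 14 DAP and 56.0 and 50.8 FPKM at 20 DAP in BETL. It was found in MATZ at 24.1 and 32.0 FPKM at 8 DAP, 34.4 and 36.3 FPKM at 14 DAP and 16.9 and 16.1 FPKM at 20 DAP. Its libraries overlapped between the tissues at 14 DAP and were apart at 8 and 20 DAP.

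In the third shape, with 4 genes, BETL was at least 2-fold higher and MATZ at least 2-fold lower at 20 than at 8 DAP, with a MATZ mean above 2 FPKM at 20 DAP. GRMZM2G165255 (chromosome 5, 2766676 to 2767975, plus strand) stood at 4.005 and 14.0 FPKM at 8 DAP, 39.4 and 62.5 FPKM at 14 DAP and 64.2 and 93.3 FPKM at 20 DAP in BETL. It stood at 21.1 and 52.9 FPKM at 8 DAP, 41.8 and 9.90 FPKM at 14 DAP and 14.5 and 9.77 FPKM at 20 DAP in MATZ. The replicates of MATZ at 8 and 14 DAP differed over 2-fold, and the tissues overlapped at 14 DAP. MATZ was 3.79-fold above BETL at 8 DAP, and BETL 6.07-fold above MATZ at 20 DAP.

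GRMZM2G106393 (chromosome 2, 6981543 to 6982313, minus strand) had its highest BETL values at 14 DAP, with 21.8 and 11.8 FPKM at 8 DAP, 203 and 101 FPKM at 14 DAP and 85.2 and 78.3 FPKM at 20 DAP. For MATZ the levels were 49.0 and 79.6 FPKM at 8 DAP, 7.99 and 36.5 FPKM at 14 DAP and 0 and 19.6 FPKM at 20 DAP. The tissues were apart at all 3 ages, with MATZ the higher at 8 DAP and BETL at 14 and 20 DAP. MATZ was 3.66-fold above BETL at 8 DAP, and BETL 6.59-fold and 7.65-fold above MATZ at 14 and 20 DAP. By the depth estimate given below, its MATZ libraries held about 1.4 and 3.8 fragments at 14 DAP and 0 and 1.4 at 20 DAP. The 6.59-fold and the 7.65-fold therefore rest on few fragments.

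GRMZM2G154896 (chromosome 8, 5597273 to 5600860, plus strand) measured 0 and 3.58 FPKM at 8 DAP, 40.9 and 17.6 FPKM at 14 DAP and 34.7 and 43.5 FPKM at 20 DAP in BETL. Across the MATZ libraries it measured 20.1 and 29.97 FPKM at 8 DAP, 42.0 and 6.75 FPKM at 14 DAP and 20.7 and 0 FPKM at 20 DAP. Replicate 2 of MATZ was far below replicate 1 at 14 and 20 DAP, and the tissues overlapped at 14 DAP. GRMZM2G010163 (chromosome 4, 240248029 to 240251096, minus strand) gave 6.84 and 4.99 FPKM at 8 DAP, 0 and 15.5 FPKM at 14 DAP and 39.9 and 21.4 FPKM at 20 DAP in BETL. MATZ gave 15.1 and 73.7 FPKM at 8 DAP, 30.7 and 45.3 FPKM at 14 DAP and 14.1 and 0 FPKM at 20 DAP. At 14 DAP both MATZ libraries were still above both BETL libraries, 4.46-fold on the means plus 1.

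**Figure D2:**
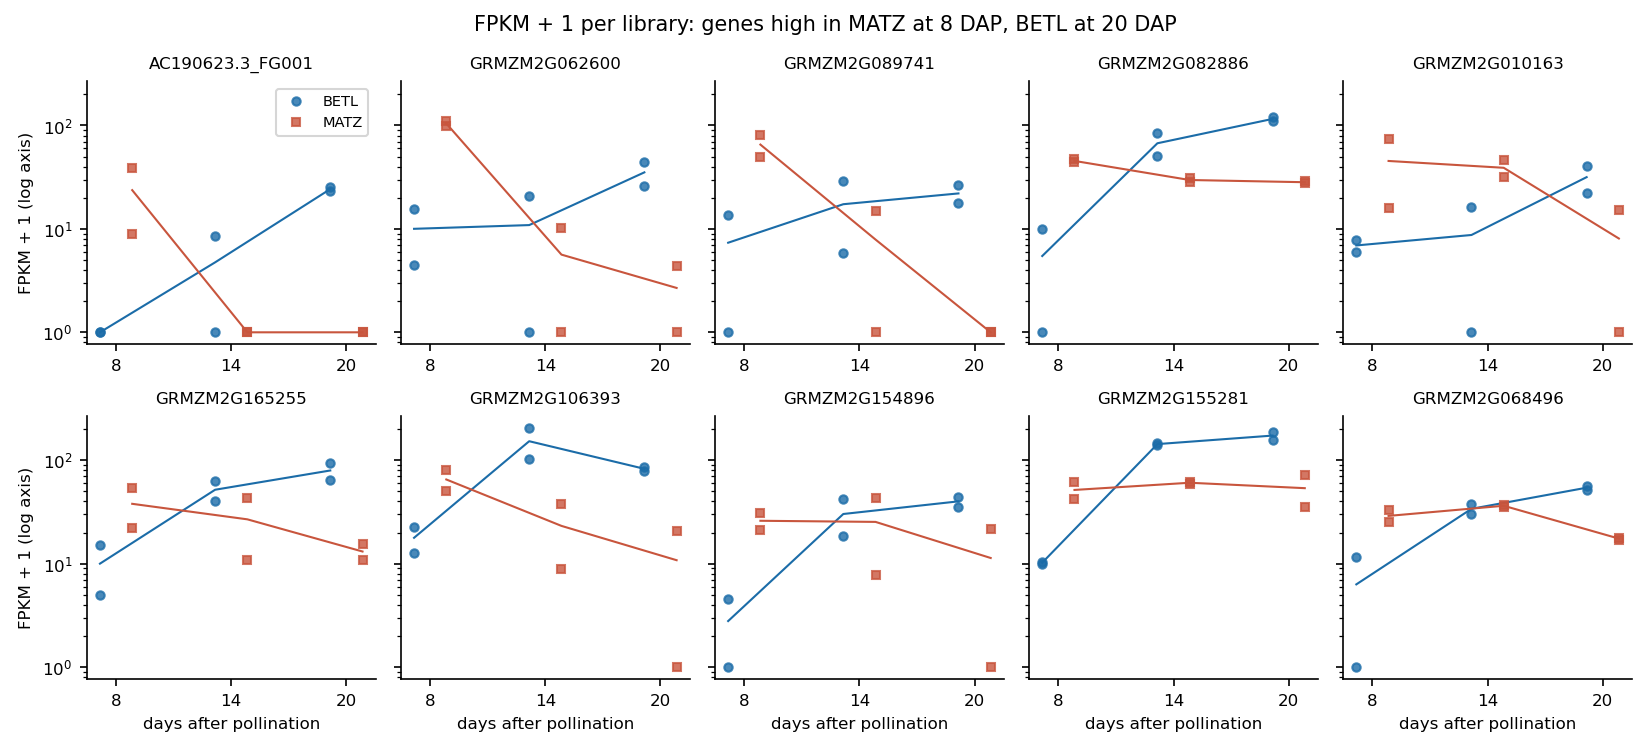
FPKM plus 1 on a log axis against age for the 10 genes high in MATZ at 8 DAP and in BETL at 20 DAP, with 1 point per library (BETL circles, MATZ squares) and lines through the group means plus 1. Points at the bottom of an axis are libraries listed at 0. In 8 of the 10 genes, GRMZM2G155281 and GRMZM2G082886 among them, the BETL line passes the MATZ line between 8 and 14 DAP.

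Most of the 9 genes high in BETL at 8 DAP and in MATZ at 20 DAP differed between the ages more in MATZ than in BETL. The MATZ mean was at least 2-fold higher at 20 than at 8 DAP in 8 of 9, the exception being AC209987.4_FG010. The BETL mean was at least 2-fold lower at 20 than at 8 DAP in 5 of 9. In 4 genes both held. The larger of the changes between 8 and 20 DAP was that of MATZ in 6 of 9, with an overlapping pair described below among them. In the other direction the larger change was that of BETL in 6 of 10. These values chose the genes and carry no test.

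GRMZM2G456217 (chromosome 1, 205422404 to 205424254, minus strand) was the most abundant of the 19 by its mean over all libraries and had the closest replicates. Its BETL libraries had 174 and 209 FPKM at 8 DAP, 100.4 and 127 FPKM at 14 DAP and 109 and 111 FPKM at 20 DAP. In MATZ each age was above the one before, with 24.7 and 21.7 FPKM at 8 DAP, 99.1 and 128 FPKM at 14 DAP and 813 and 854 FPKM at 20 DAP. BETL was the higher tissue at 8 DAP, the libraries of the tissues were mixed at 14 DAP, and MATZ was the higher at 20 DAP. BETL was 7.97-fold above MATZ at 8 DAP and MATZ 7.51-fold above BETL at 20 DAP. The MATZ mean at 20 DAP was 34.5-fold that at 8 DAP, while the BETL mean at 8 DAP was 1.73-fold that at 20 DAP.

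Among the other genes whose larger change was in MATZ, GRMZM5G827257 (chromosome 2, 174124332 to 174126023, minus strand) had 40.3 and 61.1 FPKM at 8 DAP, 8.74 and 61.3 FPKM at 14 DAP and 21.6 and 29.9 FPKM at 20 DAP in BETL. Its MATZ values came to 6.46 and 6.70 FPKM at 8 DAP, 19.2 and 33.1 FPKM at 14 DAP and 91.1 and 145 FPKM at 20 DAP. The replicates of BETL at 14 DAP lay on either side of both MATZ libraries. BETL was 6.83-fold above MATZ at 8 DAP, and MATZ 4.44-fold above BETL at 20 DAP.

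GRMZM2G136439 (chromosome 1, 220095821 to 220098832, plus strand) reached its highest BETL level at 14 DAP, with 34.6 and 6.47 FPKM at 8 DAP, 110.2 and 57.4 FPKM at 14 DAP and 22.7 and 37.5 FPKM at 20 DAP. MATZ libraries had 6.91 and 0 FPKM at 8 DAP, 33.7 and 35.5 FPKM at 14 DAP and 130.3 and 158 FPKM at 20 DAP. It is the only member of the 19 whose libraries overlapped at an age the rule used, since BETL replicate 2 lay below MATZ replicate 1 at 8 DAP. GRMZM2G170276 (chromosome 2, 193836303 to 193838601, plus strand) varied the most between replicates of all 19, with 63.7 and 23.2 FPKM at 8 DAP, 20.6 and 21.2 FPKM at 14 DAP and 31.2 and 21.4 FPKM at 20 DAP in BETL. The MATZ values were 16.5 and 0 FPKM at 8 DAP, 29.6 and 0 FPKM at 14 DAP and 40.6 and 209.5 FPKM at 20 DAP. Its MATZ mean at 20 DAP rests mainly on replicate 2.

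GRMZM2G007404 and GRMZM2G306851 were also at least 2-fold lower in BETL at 20 than at 8 DAP. GRMZM2G007404 (chromosome 8, 87034121 to 87038214, minus strand) had 118 and 139.7 FPKM at 8 DAP, 44.5 and 91.1 FPKM at 14 DAP and 46.4 and 41.1 FPKM at 20 DAP in BETL. Levels in MATZ were 29.9 and 35.4 FPKM at 8 DAP, 26.0 and 60.7 FPKM at 14 DAP and 213 and 232 FPKM at 20 DAP. GRMZM2G306851 (chromosome 8, 87027631 to 87035898, plus strand) had 20.0 and 31.8 FPKM at 8 DAP, 19.4 and 26.6 FPKM at 14 DAP and 11.9 and 10.6 FPKM at 20 DAP in BETL. MATZ libraries gave 7.73 and 7.65 FPKM at 8 DAP, 9.85 and 17.4 FPKM at 14 DAP and 67.0 and 53.7 FPKM at 20 DAP. The tissues were apart at 8 and 20 DAP in both genes, and at 14 DAP they overlapped in GRMZM2G007404 and were apart in GRMZM2G306851, with BETL the higher. These models overlap by 1778 bp on opposite strands, so they are not separate observations if reads were counted without strand. For GRMZM2G007404 BETL was 3.86-fold above MATZ at 8 DAP and MATZ 4.997-fold above BETL at 20 DAP. For GRMZM2G306851 these ratios were 3.09-fold and 5.03-fold.

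In the other 3 genes the larger change was that of BETL. AC209987.4_FG010 (chromosome 5, 46946530 to 46947446, minus strand) had 683 and 451 FPKM at 8 DAP, 60.9 and 52.7 FPKM at 14 DAP and 14.2 and 22.7 FPKM at 20 DAP in BETL. Its MATZ libraries varied little, at 114 and 103 FPKM at 8 DAP, 84.96 and 89.6 FPKM at 14 DAP and 88.5 and 99.1 FPKM at 20 DAP. The tissues were apart at all 3 ages, with BETL above MATZ at 8 DAP alone. BETL was 5.18-fold above MATZ at 8 DAP, and MATZ 4.87-fold above BETL at 20 DAP. The BETL mean at 8 DAP was 29.2-fold that at 20 DAP.

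AC209987.4_FG010 lies over all of its 917 bp inside GRMZM5G882378 (chromosome 5, 46944200 to 46947563), a model on the opposite strand. That model had 277 and 192 FPKM at 8 DAP, 24.1 and 25.0 FPKM at 14 DAP and 7.17 and 11.4 FPKM at 20 DAP in BETL. In MATZ it had 51.5 and 34.7 FPKM at 8 DAP, 49.0 and 44.0 FPKM at 14 DAP and 27.4 and 21.9 FPKM at 20 DAP. It too was higher in BETL at 8 DAP and in MATZ at 20 DAP but did not reach the ratio at 20 DAP. Whether the reads were counted by strand is not given in the sources used here, and without it reads of the overlapping models cannot be told apart.

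GRMZM2G068239 (chromosome 4, 92059462 to 92061069, minus strand) was low throughout, with 21.3 and 44.1 FPKM at 8 DAP, 0 and 2.62 FPKM at 14 DAP and 0 and 0 FPKM at 20 DAP in BETL. It showed 4.29 and 13.6 FPKM at 8 DAP, 21.5 and 6.54 FPKM at 14 DAP and 11.6 and 29.9 FPKM at 20 DAP in MATZ. Being listed at 0 in both BETL libraries of 20 DAP, it has no fold at that age. BETL was 3.38-fold above MATZ at 8 DAP, and at 14 DAP MATZ was already above BETL in both libraries.

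GRMZM2G022799 (chromosome 4, 186487329 to 186488873, plus strand) was at 128 and 117 FPKM at 8 DAP, 40.1 and 37.9 FPKM at 14 DAP and 36.5 and 21.3 FPKM at 20 DAP in BETL. It was at 30.2 and 37.7 FPKM at 8 DAP, 21.6 and 47.5 FPKM at 14 DAP and 60.6 and 125 FPKM at 20 DAP in MATZ. The 2 BETL libraries of 14 DAP lay between the 2 MATZ libraries of that age. BETL was 3.53-fold above MATZ at 8 DAP, and MATZ 3.15-fold above BETL at 20 DAP.

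**Figure D3:**
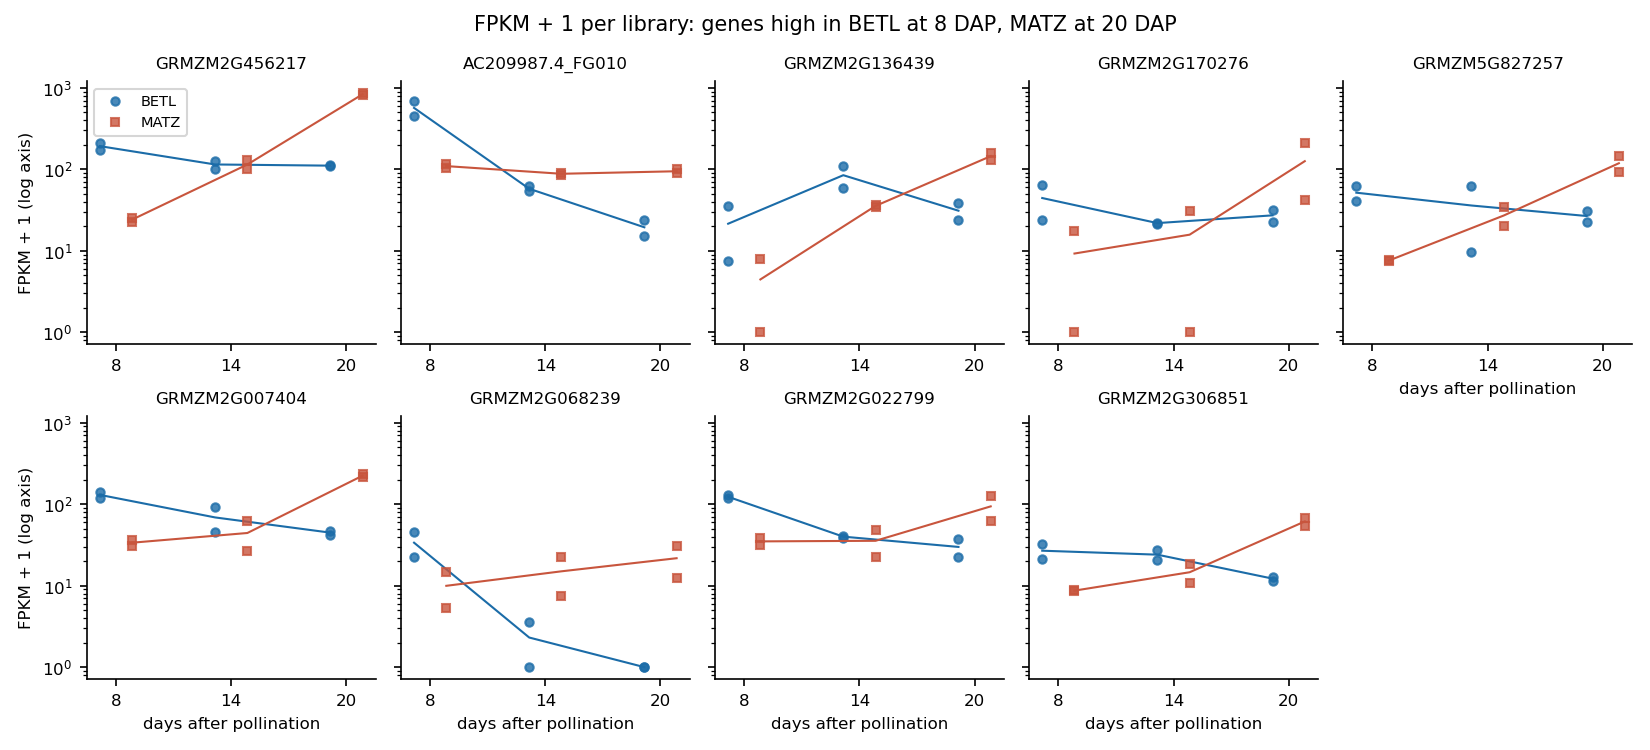
FPKM plus 1 on a log axis against age for the 9 genes high in BETL at 8 DAP and in MATZ at 20 DAP, with 1 point per library (BETL circles, MATZ squares) and lines through the group means plus 1. From 8 to 20 DAP GRMZM2G456217 shows the largest MATZ rise, to 813 and 854 FPKM. It was 34.5-fold on means plus 1, against 32.6-fold for GRMZM2G136439. AC209987.4_FG010 shows the largest BETL fall among genes not listed at 0, to 14.2 and 22.7 FPKM.

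The 14 DAP values were not used to choose the genes, so the tissue differences were tested there, with a spread that is not free of that choice. The question is which side each gene was on midway. The test was limma on log2(FPKM + 1) over all 12 libraries, with p-values adjusted by Benjamini-Hochberg over the 24213 genes tested, and all 19 members passed the filter on low values. By limma 0 of 19 members differed between BETL and MATZ at an adjusted p under 0.05, against 9.0% of all genes tested (4.63% higher in BETL and 4.38% higher in MATZ). At an unadjusted p under 0.05 there were 3 of 19, against 23.1% of all genes. The spread behind these p-values is pooled over all groups, and so draws on the ages that chose the genes. The fit on the 14 DAP libraries alone does not, but it called 0 of all genes tested and cannot decide. The counts of members beside the shares of all genes are thus not a test independent of the choice. No other tool was run. The number of members called was 2 with a pseudocount of 5, 1 with quantile normalization and 2 without either MATZ library of 20 DAP, and these were GRMZM2G155281 and, except with quantile normalization, GRMZM2G106393, both higher in BETL.

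The member nearest to the threshold was GRMZM2G155281, with 143 ± 5.71 FPKM in BETL and 59.7 ± 2.41 FPKM in MATZ at 14 DAP (SD, n = 2). Its log2 difference, BETL minus MATZ, was 1.24 ± 0.37 (SE; limma adjusted p = 0.0705), and over the alternatives tried its adjusted p ran from 0.0206 to 0.22. GRMZM2G068239 had a log2 difference of −2.77 ± 0.93 (limma adjusted p = 0.0987, from 0.0597 to 0.396 over the alternatives). GRMZM2G106393 had one of 2.97 ± 1.18 (limma adjusted p = 0.16, from 0.0294 to 0.503). These are the 3 genes at an unadjusted p under 0.05. Of the 5 other genes whose libraries were apart at 14 DAP, GRMZM2G010163 had a log2 difference of −3.24 ± 1.46 (limma adjusted p = 0.219), AC209987.4_FG010 one of −0.61 ± 0.31 (0.274), GRMZM2G306851 one of 0.75 ± 0.45 (0.373), GRMZM2G082886 one of 1.14 ± 0.83 (0.463) and GRMZM2G136439 one of 1.18 ± 0.94 (0.503). GRMZM2G456217 stood at 114 ± 19.0 FPKM in BETL and 114 ± 20.8 FPKM in MATZ (SD, n = 2), a log2 difference of 0.00 ± 0.24. Of all 19 it had the smallest standard error.

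The median log2 difference at 14 DAP was 1.18 over the 10 genes high first in MATZ and 0.27 over the 9 high first in BETL, beside 0.00 over all genes tested. The log2 difference was above 0, that is higher in BETL, in 8 of the 10 and in 6 of the 9, and in 49.9% of all genes, with 43.1% below 0. The genes tested needed only 1 FPKM in 2 libraries, while each member reached a mean of 20 FPKM at 8 and 20 DAP. Values over all genes tested, here and for the calls above, are thus not matched to the members in level. The first median was 0.0853 without MATZ replicate 2 of 14 DAP and 1.70 without MATZ replicate 1, and the second was −0.18 without that MATZ replicate 1 and 0.72 without BETL replicate 1 of 14 DAP. At 14 DAP the libraries of the tissues did not overlap in 4 of the 10 genes and in 4 of the 9, close to the 43.8% of all genes tested (22.8% with BETL the higher and 21.0% with MATZ the higher). In each of the 19 genes the tissue ratio of means plus 1 at 14 DAP lay between the ratios at 8 and 20 DAP. It was nearer to the 20 DAP ratio in 9 of the 10 genes high first in MATZ and in 3 of the 9 high first in BETL. That comparison uses the 8 and 20 DAP values that chose the genes and carries no test.

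**Figure D4:**
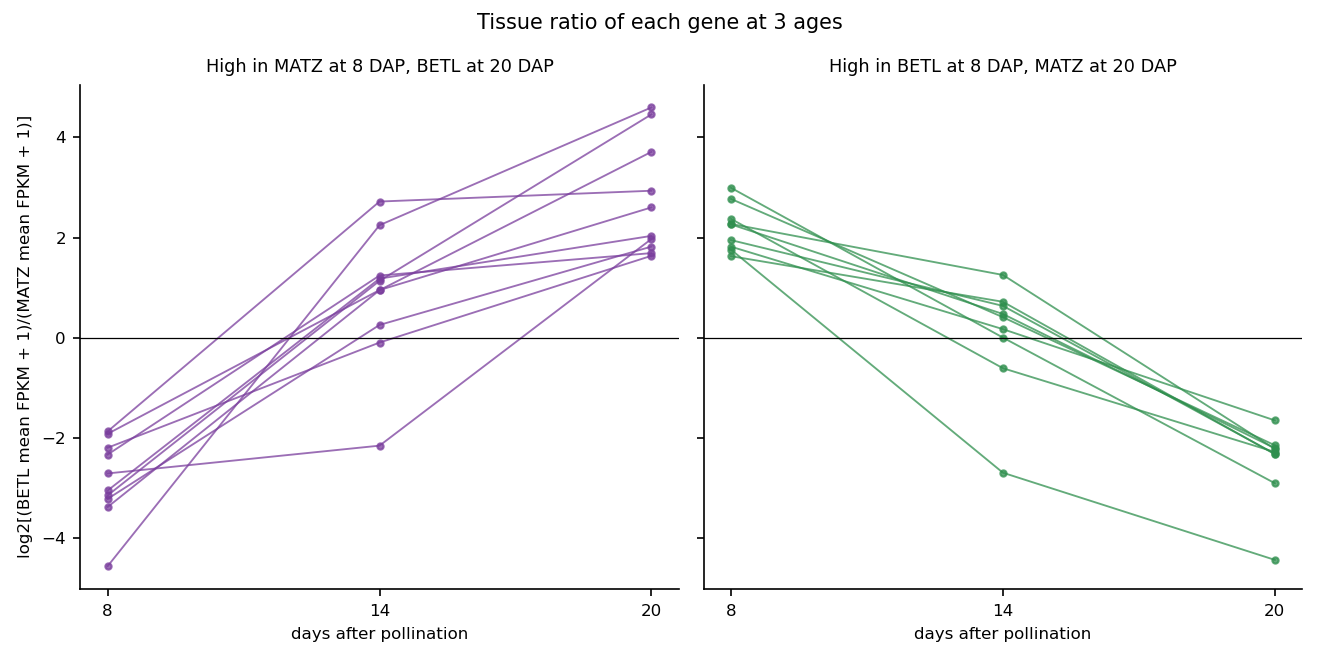
Log2 of BETL over MATZ on group means of FPKM plus 1 against age, 1 line per gene, for the 10 genes high first in MATZ (left) and the 9 high first in BETL (right); the horizontal line marks equal levels. At 14 DAP 8 of the 10 lines on the left are above 0 and 1, GRMZM2G010163, is far below it, and the lines on the right lie within 1 of 0 except GRMZM2G136439 above and GRMZM2G068239 below.

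The precision of these levels depends on depth, which the table does not give. It was estimated from the spacing of low FPKM values after multiplying each by the span of its gene, taking the smallest spacing of a library for 1 fragment, which is an inference. On a gene of 1 kb, 1 fragment was then worth 1.42 to 6.90 FPKM in the BETL libraries and 2.89 to 10.6 FPKM in the MATZ libraries. In 9 of the 12 libraries low values also gathered at a second step, 1.23 to 1.59 times the smallest, and at the sum of both, so 1 fragment does not have a single worth there and the numbers below for these 9 libraries are the most that the steps allow. In MATZ replicate 2 of 8 DAP 17.6% of the values, and in MATZ replicate 2 of 20 DAP 11.1%, lay below the smallest step, against 3.23% to 7.04% in the other libraries, and the estimate is least sure there. By this estimate the shallowest was MATZ replicate 2 of 20 DAP, at 10.6 FPKM per fragment. By genes above 0 it was not, with 16079. Fewer were above 0 in BETL replicates 1 and 2 of 8 DAP (12609 and 15220) and MATZ replicate 2 of 14 DAP (15313). Introns shorten the transcript below the span, so the estimates are high for genes with introns, and they cover counting error only.

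By the smallest step AC190623.3_FG001 rested on about 13 and 9.40 fragments in BETL at 20 DAP and 2.10 and 4.60 in MATZ at 8 DAP. In MATZ replicate 2 of 20 DAP, where it is listed at 0, 1 fragment would be worth 14.0 FPKM beside 24.2 and 22.4 FPKM in BETL. At this depth a listed 0 does not show that the transcript was absent. GRMZM2G068239 rested on about 5 and 18.1 fragments in BETL at 8 DAP and 4.80 and 4.50 in MATZ at 20 DAP. GRMZM2G136439 had about 15.1 and 5 in BETL at 8 DAP. At the other end, GRMZM2G456217 had 46.7 and 98.7 in BETL at 8 DAP and 387 and 149 in MATZ at 20 DAP, and GRMZM2G007404 had 70.3 and 146 and 225 and 89.5 in those groups. Some genes had at least 10 estimated fragments in each of the 4 libraries where they were high. They numbered 6 of the 10 high first in MATZ and 5 of the 9 high first in BETL. The larger step, tried after the data were seen, gave 6 and 5 as well. MATZ replicate 2 of 8 DAP and both MATZ libraries of 20 DAP show no second step. Their estimates stayed the same, so the larger step is no check on them. A 0 in at least 1 library of the lower tissue at 8 or 20 DAP was listed for 8 of the 10 and 3 of the 9. Several ratios above rest on few fragments in the lower tissue. At 8 DAP, BETL had about 0 and 3.6 for GRMZM2G082886, 0 and 3.9 for GRMZM2G089741 and 2.5 and 1.1 for GRMZM2G062600. MATZ had 3.8 and 1.8 for GRMZM5G827257 at 8 DAP and 4.8 and 1.2 for GRMZM2G165255 at 20 DAP. By contrast, GRMZM2G456217 had 15.8 and 6.5 in MATZ at 8 DAP and 142.9 and 113.5 in BETL at 20 DAP.

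**Figure D5:**
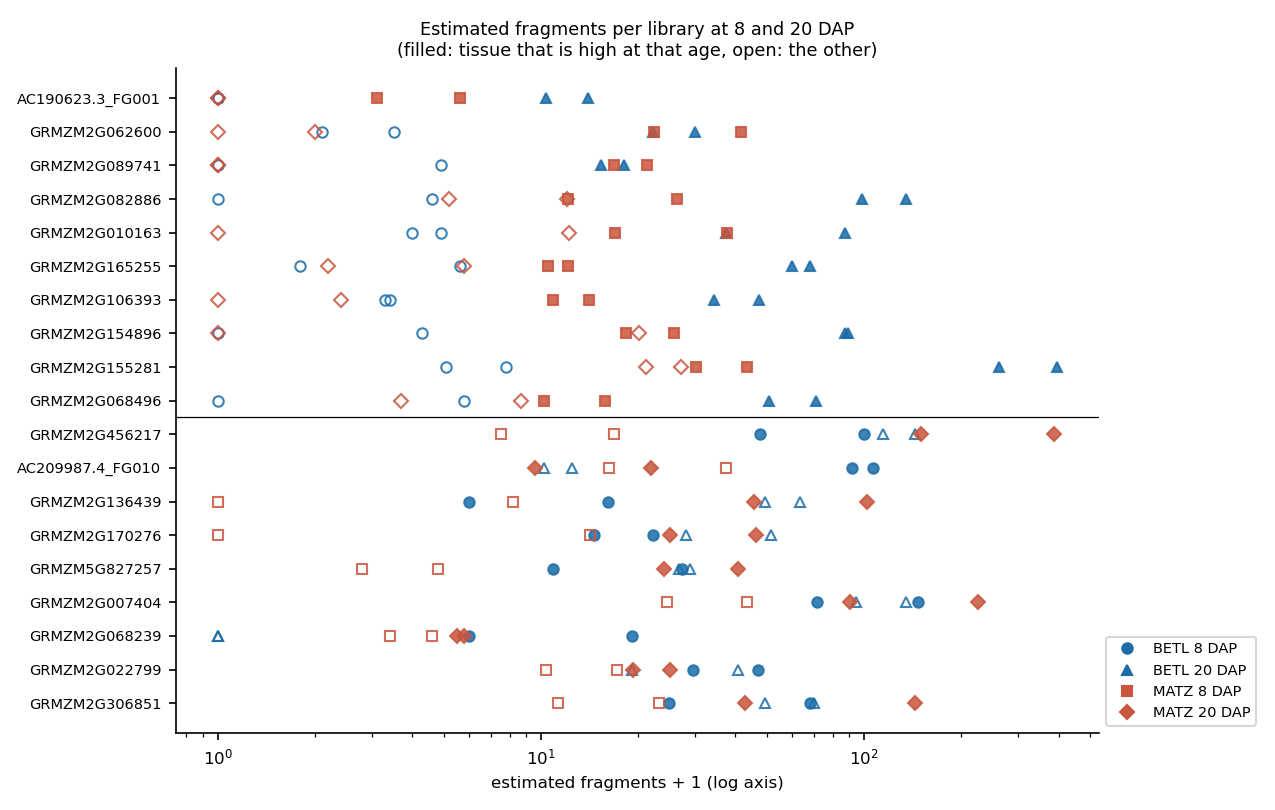
Estimated fragments plus 1 on a log axis for each of the 19 genes in the 8 libraries of 8 and 20 DAP, the genes high first in MATZ above the line and those high first in BETL below it. Filled symbols are the tissue that was high at that age and open symbols the other; AC190623.3_FG001 and GRMZM2G068239 have the fewest fragments, and GRMZM2G155281 and GRMZM2G456217 the most.

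By medians, the genes high first in MATZ were lower in level and wider apart between replicates than those high first in BETL. Their median of the mean over 12 libraries was 27.9 FPKM, against 52.8 FPKM for the genes high first in BETL and 48.5 FPKM for the 4616 genes that reached 20 FPKM. The SD between replicates of log2(FPKM + 1), pooled over the 6 groups, had a median of 1.27 over these 10 genes and 0.50 over the 9 high first in BETL, against 0.47 over the 4616. The lowest was 0.17 in GRMZM2G456217 and the highest 2.02 in GRMZM2G170276. The libraries of the tissues did not overlap at 8 DAP in 10 of the 10 and 8 of the 9 genes, beside 38.9% of all genes tested (11.7% higher in BETL and 27.2% higher in MATZ). At 20 DAP they did not overlap in 10 of the 10 and 9 of the 9, beside 53.5% of all genes tested (25.0% higher in BETL and 28.5% higher in MATZ). These ages chose the genes, and nothing is read from those counts. The levels and spreads above also include these ages, so the comparison between the directions is a description and carries no test.

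The rule was also applied to the replicate 1 libraries alone and to the replicate 2 libraries alone, an alternative chosen after the data were seen. Replicate 1 gave 14 genes high first in MATZ and replicate 2 gave 35, of which 3 were shared, 21.4% of the first list and 8.57% of the second. The 3 were GRMZM2G062600, GRMZM2G082886 and GRMZM2G165255. For genes high first in BETL the lists held 25 and 33, of which 4 were shared, 16.0% and 12.1%. The 4 were GRMZM2G456217, AC209987.4_FG010, GRMZM2G007404 and GRMZM5G827257. Genes at least 3-fold higher in BETL at both ages shared far more: 198 of 287 in replicate 1 and of 268 in replicate 2, 69.0% and 73.9%. Those higher in MATZ at both ages shared 200 of 439 and of 509, 45.6% and 39.3%.

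Of the 14 genes chosen as high first in MATZ in replicate 1, 12 (85.7%) were on the same side at both ages in replicate 2, beside 13.2% of the 4755 genes that met the FPKM limit in replicate 1. Of the 35 chosen in replicate 2, 17 (48.6%) were on the same side at both ages in replicate 1, beside 13.6% of the 4630 genes that met the limit in replicate 2. For genes high first in BETL these numbers were 9 of 25 (36.0%), beside 18.4%, and 18 of 33 (54.5%), beside 18.6%. MATZ was the higher tissue for most genes at either age: in replicate 2, 62.5% of the 4755 genes were higher in MATZ at 8 DAP and 67.7% at 20 DAP. These shares carry no test. The base covers all genes at the FPKM limit whatever their tissue ratio, while the chosen genes were past 3-fold at both ages in the replicate that chose them. The comparison is thus not like for like, and nothing on the 19 members is read from it. Leaving out each of the 8 libraries of 8 and 20 DAP in turn, the members that met the rule every time were GRMZM2G062600 and GRMZM2G082886 among those high first in MATZ and GRMZM2G456217, AC209987.4_FG010, GRMZM2G007404 and GRMZM5G827257 among those high first in BETL. Each of the other 13 lost its place without 1, 2 or 3 of the libraries. Leaving out MATZ replicate 2 of 8 DAP ended membership in 6 genes (AC190623.3_FG001, GRMZM2G010163, GRMZM2G106393, GRMZM2G165255, GRMZM2G136439 and GRMZM2G170276). Leaving out MATZ replicate 2 of 20 DAP, the shallowest library by the estimated steps, ended it in 5 (GRMZM2G010163, GRMZM2G154896, GRMZM2G022799, GRMZM2G068239 and GRMZM2G170276).

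The 19 genes were spread over the genome. The genes high first in MATZ lay on 6 chromosomes and those high first in BETL on 5. Apart from the overlapping pair GRMZM2G007404 and GRMZM2G306851, the nearest members of a chromosome were GRMZM2G062600 and GRMZM2G010163, 5421600 bp apart on chromosome 4. None of the genes high first in MATZ overlapped another gene model, and 3 of those high first in BETL did. Whether near-identical copies elsewhere share reads with a member was not tested.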

How the data were processed

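RNA-seq of 2 tissues at 3 ages, 12 libraries in 6 groups of 2, is deposited by the authors as 1 table of FPKM values with 1 column per library. The tools listed, per the submitters' processing notes, are TopHat2, Bowtie2 and Cufflinks. Their versions and settings, the build and the annotation were not given in the sources used here. FPKM values were used as deposited. Without counts, depth was estimated from steps in the values of genes of at most 3000 bp, and no count test was run. Column totals ran from 731024 to 987477 FPKM, and 10484 gene models were at 0 in all libraries.

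The rule used means of the 8 and 20 DAP libraries. The 14 DAP difference, BETL minus MATZ, was tested with limma (version 3.58.1, R 4.3.3; 6 group means, 6 residual degrees of freedom, eBayes with a mean trend) on log2(FPKM + 1), which understates the change of low genes, over the 24213 genes at 1 FPKM or more in 2 or more libraries. The spread per gene is pooled over the groups. The fit was also run on simulated data with normal noise whose spread followed the mean level. The members' own scatter was not simulated, so that run says nothing on their calls. Other steps ran in Python 3.11.15 with pandas 2.3.3, numpy 2.4.6 and matplotlib 3.10.9. Gene names, and no coordinates, were taken from RefSeq (Zm-B73-REFERENCE-NAM-5.0), in which 18771 IDs matched.

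The members and the markers were chosen with earlier results of these data known. All members are named, with 3 genes on each side of the threshold per direction. Gene lists by symbol and promoter motifs had been planned and were not used, since no member has a descriptive symbol and no promoter sequence was at hand. The labels do not say whether replicate numbers pair the libraries, and the main fit took them as unpaired. Deviations of same-numbered libraries correlated with r between −0.02 and 0.02 across genes for the 15 pairs of groups. At the depth estimated here, a low correlation cannot show that the libraries were not paired. The settings varied were the pseudocount, the filter, the scaling, the FPKM and ratio limits of the rule, a replicate block, the libraries fitted, the mean trend and leaving out each library.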

Additional observations from a re-analysis of the deposited data

How the results depend on the processing

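How many genes changed sides depended on the FPKM and ratio limits of the rule, in the order high first in MATZ and high first in BETL. Their numbers were 10 and 9 as reported, 31 and 32 with a mean of at least 10 FPKM and 2 and 5 with one of at least 50. A ratio of at least 2 gave 38 and 60 genes and one of at least 5 gave 3 and 1. They were 6 and 6 with a pseudocount of 5, 17 and 16 with quantile normalization, 14 and 25 with the replicate 1 libraries alone and 35 and 33 with replicate 2 alone. Leaving out 1 library gave 8 to 20 and 7 to 18 genes, the highest without MATZ replicate 1 of 20 DAP (20) and without BETL replicate 2 or MATZ replicate 1 of 8 DAP (18). With median-of-ratios scaling 10 of the 10 and 7 of the 9 members were kept, and with quantile normalization 8 and 7.

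At 14 DAP the number of members high first in MATZ that were called higher in BETL was 0 as reported, 2 with a pseudocount of 5 (GRMZM2G106393, limma adjusted p = 0.0417, and GRMZM2G155281, 0.0485) and 1 with quantile normalization (GRMZM2G155281, 0.0206). It ran from 0 to 2 leaving out 1 library, and the other counts of members stayed at 0 under each alternative. The genes called among all tested were 2180 as reported, 0 in the fit on the 14 DAP libraries alone, which has 2 residual degrees of freedom (4637 at an unadjusted p under 0.05), and 943 to 2342 leaving out 1 library. Where a 14 DAP library is left out, the lone library is assumed to vary like the other groups. Medians of the log2 difference ran from 0.0853 to 1.70 (high first in MATZ) and from −0.18 to 0.72 (high first in BETL). The replicate block changed no call among the members and gave 1937 genes among all tested.

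Some single log2 differences at 14 DAP changed sign, among them GRMZM2G170276 and GRMZM2G089741, which stood at 1.99 and 1.76 as reported. GRMZM2G068496 turned to 0.0424 with median-of-ratios scaling and 0.0246 with quantile normalization, and GRMZM5G827257 to 0.0592 and 0.0555. Leaving out 1 library, the ranges that crossed 0 were −1.68 to 2.70 for GRMZM2G062600, −0.18 to 3.70 for GRMZM2G089741, −0.62 to 1.85 for GRMZM2G154896, −0.28 to 0.0634 for GRMZM2G068496, −0.18 to 0.19 for GRMZM2G456217, −0.48 to 4.45 for GRMZM2G170276, −1.43 to 1.25 for GRMZM5G827257 and −0.28 to 0.82 for GRMZM2G022799. The cause was not tested.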
